A study of Homo sapiens with 14 samples.

Results

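ZIK1 and ZNF528-AS1 are 2 genes of chromosome 19 whose RNA was higher in every knockdown of a study of the HUSH and HUSH2 silencing complexes than in either of its controls. They were named by gene symbol in the deposited table, in which both were found, and are 2 of 35805 gene rows and 2 of the 16433 genes with at least 1 group mean above 0 on the log2 scale. They were chosen by their measured group means, which stood above both controls in all 4 knockdowns, so the differences from the controls are given here as a description and carry no test. ZIK1 (zinc finger protein interacting with K protein 1, ENSG00000171649.11) is protein-coding and lies on the plus strand at chr19:57578456-57593777 on GRCh38. ZNF528-AS1 (ENSG00000269834.5) is a non-coding antisense gene on the minus strand at chr19:52388842-52397766, about 5181 kb from ZIK1.

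RNA was taken from K562, an established erythroleukaemia line, carrying dCas9-KRAB, a cutting-dead Cas9 fused to a repressor domain that lowers transcription where a guide RNA places it (CRISPR interference). The 6 groups, all in that line, were untransduced cells (2 libraries in the labels), cells with the control guide sgAAVS1 (3 libraries) and cells with guides against TASOR (2), TASOR2 (3), MPP8 (2) or PPHLN1, which encodes Periphilin (2). In the knockdown groups each library is a different guide, and transduced cells were harvested at day 7 after transduction. The table gives 1 mean per group and no single library, so no SD, n or p-value can be given, and spread between guides or replicates was not measured. The TASOR2 column was a mean of 2 libraries, although the labels list 3.

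HUSH is a complex of TASOR, MPP8 and Periphilin that keeps retrotransposons, recently integrated DNA and some cellular genes silent through methylation of histone H3 on lysine 9, with the methyltransferase SETDB1 and the ATPase MORC2 as partners. In HUSH2 TASOR2 takes the place of TASOR, while MPP8 and Periphilin are shared. KRAB zinc finger genes, which encode DNA-binding repressors and lie in clusters on chromosome 19, are known to carry the same histone mark over their coding exons. ZIK1 is a gene of this kind in the cluster near the end of the long arm. ZNF528-AS1 lies head to head with ZNF528, another such gene, in a second cluster.

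Between the starts of ZNF528-AS1 and ZNF528 there are 82 bases in GENCODE release 29 and 91 in RefSeq, so that the 2 genes are read away from a shared promoter. The stretch is shown because 1 member and its partner are both transcribed from its edges, and the last bases before the ZIK1 start are shown beside it for comparison. Both are RefSeq sequence (GRCh38.p14), 5′ to 3′ on the plus strand, and capitals mark CTTCCGG or its reverse complement CCGGAAG. The ZIK1 stretch is chr19:57583976-57584139 and the shared stretch is chr19:52397758-52397848.
ZIK1 promoter: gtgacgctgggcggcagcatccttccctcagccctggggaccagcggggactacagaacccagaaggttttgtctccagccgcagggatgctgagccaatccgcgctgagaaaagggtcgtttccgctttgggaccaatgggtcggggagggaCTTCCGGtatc
Shared promoter of ZNF528-AS1 and ZNF528: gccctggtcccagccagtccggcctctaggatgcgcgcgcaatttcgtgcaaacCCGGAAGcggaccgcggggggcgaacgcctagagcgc
The ZIK1 stretch has 164 bases, 62.2% GC and 10 CG dinucleotides, and the shared stretch has 91 bases, 70.3% GC and 12 CG dinucleotides. Searched on both strands were the motif CTTCCGG, the motif CCAAT and the motif TATAAA, chosen after the sequences had been read, and no match of one overlapped a match of another. In the 250 bases before the RefSeq start, ZIK1 had 1 match to CTTCCGG, 16 bases before the start, and 2 to CCAAT. ZNF528-AS1 had 2 matches to CTTCCGG, 61 and 112 bases before its start, and none to CCAAT. Neither window had TATAAA. Among 27305 promoters of that length 8.82% held CTTCCGG, against 31.9% of 216 numbered zinc finger genes of chromosome 19. The corresponding shares were 33% and 50.9% for CCAAT and 11.1% and 1.85% for TATAAA. ZIK1 had 17 CG dinucleotides and ZNF528-AS1 20 in the full windows, beside a median of 11 over all promoters and 16 over the chromosome 19 zinc finger genes.

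Levels are the authors' group means in log2 RPM (reads-per-million), with the 95% counting interval in brackets, which takes Poisson error at the depth recovered from the table and covers counting error only. That depth was between 5857937 and 7406968 reads per library. All 4 targeted genes were lowest in their own knockdown, with 6.56% of the sgAAVS1 level left for TASOR (FAM208A in the table), 37.5% for TASOR2 (FAM208B), 28.2% for MPP8 (MPHOSPH8) and 40.8% for PPHLN1. The share of target RNA left was thus unequal, and its part in the differences below was not tested. All 10 erythroid and progenitor markers of K562 had means between 4.53 and 8.79 in every group. Of 12 markers of lymphoid, epithelial, stromal and neuronal cells 5 had no mean above 0, and none of the 7 others was higher in a knockdown than in sgAAVS1. SYP was lower than in sgAAVS1 in TASOR2 (-1.24) and in untransduced cells (-1.10). Some of the 7 had levels within the range of the K562 markers. PTPRC lay between 6.55 and 7.04, EPCAM between 6.13 and 6.37 and COL1A1 between 5.44 and 5.93. Their presence alone therefore cannot show whether other cells were in the culture. In RNA from a whole culture, more cells with a transcript and more transcript per cell cannot be told apart.

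ZIK1 was low in both controls and higher in every knockdown, least in TASOR and TASOR2 and most in PPHLN1. Its mean was 1.5 (1.03 to 1.94) in untransduced cells, about 21.0 reads per library, and 0.94 (0.42 to 1.41) in sgAAVS1, about 11.9 reads per library. It was 2.89 (2.60 to 3.17) in the TASOR knockdown and 2.88 (2.56 to 3.19) in TASOR2. It was 4.19 (3.99 to 4.38) in MPP8 and 4.61 (4.44 to 4.77) in PPHLN1, where about 145.4 reads per library fell on the gene. Both controls lay below all 4 knockdowns, with no overlap of counting intervals between any control and any knockdown. ZIK1 was chosen for means that stood apart in this way, so nothing is read from the lack of overlap. TASOR and TASOR2 lay together below MPP8 and PPHLN1.

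ZNF528-AS1 was likewise low in both controls and highest in MPP8 and PPHLN1. Its mean was 1.43 (0.95 to 1.88) in untransduced cells, about 20.0 reads per library, and 1.27 (0.82 to 1.69) in sgAAVS1, about 15 reads per library. It was 2.53 (2.19 to 2.84) in TASOR and 2.73 (2.40 to 3.05) in TASOR2. It was 4.48 (4.30 to 4.66) in MPP8 and 4.80 (4.64 to 4.96) in PPHLN1, about 166.4 reads per library. The controls again lay lowest and next to each other, TASOR and TASOR2 came next, and MPP8 and PPHLN1 were highest.

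**Figure D1:**
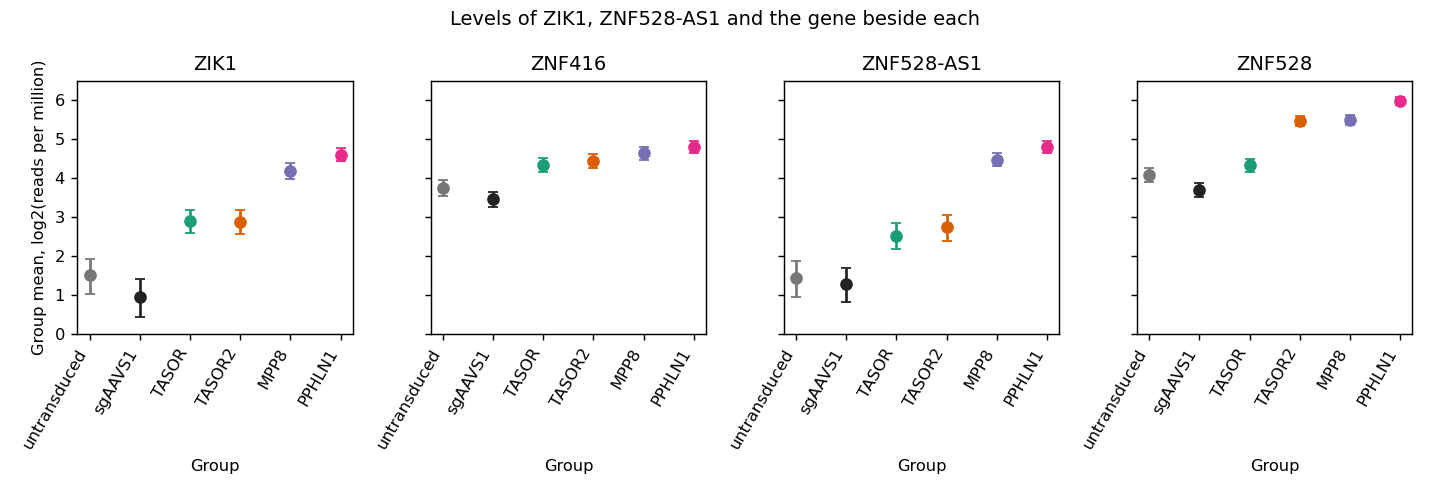
Group means of ZIK1, ZNF416, ZNF528-AS1 and ZNF528 in log2 RPM (vertical axis) in the 6 groups (horizontal axis), where points are the authors' means and bars are 95% counting intervals. ZIK1 and ZNF528-AS1 run from 0.94 to 1.5 in the controls to 4.61 and 4.80 in PPHLN1, while ZNF416 and ZNF528 start higher and climb less.

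Set against sgAAVS1, the log2 difference of ZIK1 was 1.96 (1.40 to 2.54) in TASOR, 1.95 (1.38 to 2.55) in TASOR2, 3.25 (2.74 to 3.8) in MPP8 and 3.67 (3.17 to 4.21) in PPHLN1, the last a 12.7-fold higher level. Against untransduced cells the differences were smaller by 0.56, at 1.39, 1.38, 2.69 and 3.11, because ZIK1 was 0.56 (-0.10 to 1.24) higher in untransduced cells than in sgAAVS1. For ZNF528-AS1 the differences from sgAAVS1 were 1.25 (0.71 to 1.81) in TASOR, 1.46 (0.92 to 2.02) in TASOR2, 3.21 (2.75 to 3.70) in MPP8 and 3.53 (3.08 to 4.01) in PPHLN1, the last 11.5-fold. Against untransduced cells they were 1.09, 1.30, 3.05 and 3.37. The control means of ZNF528-AS1 differed by 0.16 (-0.48 to 0.80).

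A rule of size called a gene higher when its means differed by at least 1 on the log2 scale, the higher mean was above 0 and the counting interval excluded 0. By that rule both genes were higher in all 4 knockdowns against both controls. The rule called 1.89% of tested genes higher in TASOR than in sgAAVS1, 2.15% in TASOR2, 1.59% in MPP8 and 2.77% in PPHLN1, and 1.24%, 1.33%, 1.21% and 1.54% against untransduced cells. Against both controls at once it called 0.523%, 0.974%, 0.682% and 1.17%. In all 4 knockdowns against sgAAVS1 alone it was met by 20 genes (0.122%). It was met in all 4 knockdowns and against both controls by 2 genes, or 0.0122% of those tested, and these were ZIK1 and ZNF528-AS1; since they were chosen for this pattern, nothing is read from the count. By rank of the difference from sgAAVS1 among all tested genes, ZIK1 was at 51 in TASOR, 69 in TASOR2, 7 in MPP8 and 7 in PPHLN1, and ZNF528-AS1 at 213, 176, 8 and 9. The ZNF528-AS1 difference in TASOR was the closest to the limit: after quantile normalization it was 0.97, and after median centring the gap between its TASOR mean and the higher control was 0.96, in both cases below the limit.

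The 2 genes were not alone in standing above both controls everywhere. With no limit of size, all 4 knockdown means were above both control means in 3779 genes, or 23% of those tested, and in 175 of 461 numbered zinc finger genes (38.0%). The distance from the lowest knockdown mean to the higher control mean was 1.38 for ZIK1 and 1.09 for ZNF528-AS1. It was wider than in ZNF528-AS1 in 2 other genes, AC084219.4 (1.84) and RP11-90L1.8 (1.22), which missed the rule. In AC084219.4 the TASOR2 mean was below 0 and its interval against sgAAVS1 included 0, and in RP11-90L1.8 the interval against untransduced cells included 0 in all 4 knockdowns. Just under the limit came IFIT1, an interferon-induced gene that binds viral RNA (0.96), and ZNF350-AS1, another antisense gene of a zinc finger cluster (0.96). Next were FRAS1, an extracellular matrix gene (0.94), PIPOX, a peroxisomal oxidase gene (0.92), and SAMD9, an antiviral gene (0.90). The control group with fewer reads held about 124.9 for SAMD9, but 4.60 for IFIT1, 2.68 for ZNF350-AS1, 6.32 for FRAS1 and 6.93 for PIPOX. It held 35.7 for ZIK1 and 40 for ZNF528-AS1. The means of AC084219.4 were -3.04 in untransduced cells, where no read was found, -2.73 in sgAAVS1, 0.70 in TASOR, -0.89 in TASOR2, 1.25 in MPP8 and 1.5 in PPHLN1. Those of RP11-90L1.8 were -1.23, -1.41, -0.0035, 0.03, 0.18 and 0.0088 in the same order, so that this gene held about 6 reads per library in TASOR2 and in PPHLN1 and showed no steps between knockdowns.

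**Figure D2:**
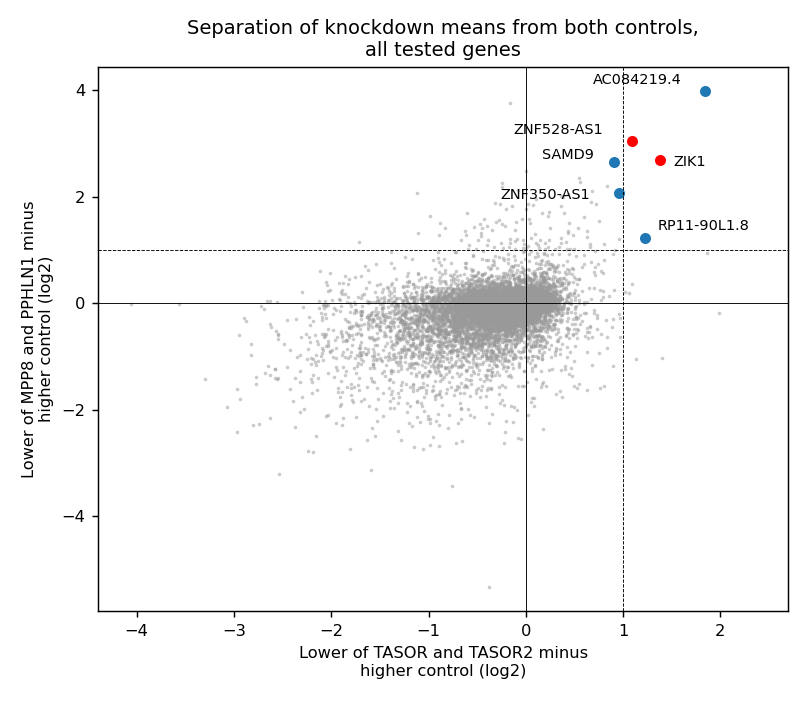
Each of the 16433 tested genes by the lower of its TASOR and TASOR2 means minus its higher control mean (horizontal axis, log2) and the lower of its MPP8 and PPHLN1 means minus the same control (vertical axis, log2), with dashed lines at 1. ZIK1 and ZNF528-AS1 (red) and 4 other named genes (blue) lie at the upper right, away from the main body of genes.

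The differences between knockdowns use the same knockdown means that chose the 2 genes, and are given as a description. MPP8 exceeded TASOR by 1.30 (0.95 to 1.65) for ZIK1 and by 1.96 (1.59 to 2.33) for ZNF528-AS1, where 0.779% of tested genes were called higher. PPHLN1 exceeded TASOR by 1.71 (1.39 to 2.05) and 2.28 (1.92 to 2.65), beside 1.36% of genes called higher. Against TASOR2, MPP8 was 1.31 (0.94 to 1.68) and 1.75 (1.38 to 2.13) higher and PPHLN1 1.72 (1.37 to 2.08) and 2.07 (1.71 to 2.44) higher, where 3.87% and 5% of genes were called. Both genes met the rule in these 4 comparisons.

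Neighbouring groups in the order were closer. TASOR2 minus TASOR was -0.01 (-0.43 to 0.41) for ZIK1 and 0.21 (-0.25 to 0.67) for ZNF528-AS1, so the counting error alone allows a difference of about 0.4 for ZIK1 and 0.7 for ZNF528-AS1. PPHLN1 minus MPP8 was 0.42 (0.16 to 0.68) and 0.32 (0.08 to 0.56), beyond counting error but short of the rule, which called 1.35% of genes higher in TASOR2 than in TASOR and 0.828% higher in PPHLN1 than in MPP8. The order of controls, then TASOR and TASOR2, then MPP8 and PPHLN1, with no limit of size, was found in 915 tested genes (5.57%) and in 57 of 461 numbered zinc finger genes (12.4%).

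Between the 2 genes, the change from sgAAVS1 differed by less than counting error allows. ZIK1 minus ZNF528-AS1 was 0.70 (-0.08 to 1.5) in TASOR, 0.48 (-0.31 to 1.29) in TASOR2, 0.04 (-0.67 to 0.76) in MPP8 and 0.14 (-0.56 to 0.84) in PPHLN1. The intervals are wide because each control mean rests on few reads.

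ZNF528, read from the other edge of the shared promoter, did not follow ZNF528-AS1 in all knockdowns. Its mean was 4.09 in untransduced cells, 3.70 in sgAAVS1, 4.33 in TASOR, 5.47 in TASOR2, 5.49 in MPP8 and 5.98 in PPHLN1. TASOR2 thus stood with MPP8, the 2 differing by 0.02 (-0.16 to 0.20), and TASOR stood near the controls. From sgAAVS1 ZNF528 differed by 0.63 (0.38 to 0.88) in TASOR, short of the rule, by 1.77 (1.55 to 2.0) in TASOR2, 1.79 (1.57 to 2.02) in MPP8 and 2.28 (2.07 to 2.50) in PPHLN1. The change of ZNF528-AS1 exceeded that of ZNF528 by 1.42 (0.91 to 1.95) in MPP8, 1.25 (0.75 to 1.77) in PPHLN1 and 0.62 (0.03 to 1.23) in TASOR. In TASOR2 it did not, at -0.31 (-0.90 to 0.29). The excess in TASOR was not particular to this pair. Every other antisense gene set beside its sense gene also changed more in TASOR. ZNF350-AS1 differed by 1.88 (0.11 to 4.06), on very few control reads, where ZNF350 differed by 0.43. ZNF571-AS1 differed by 0.78 (0.35 to 1.22) where ZNF571 differed by 0.02. The 16 other tested antisense genes also had a median difference of 0.33 between untransduced cells and sgAAVS1, beside 0.05 over all tested genes. In TASOR2, MPP8 and PPHLN1 some of the other pairs went this way and some the opposite way.

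The ratio of ZNF528-AS1 to ZNF528 reads within a group, in which gene length cancels when groups are compared, restates the same values in another form. It is not separate support. For every 100 ZNF528 reads there were 15.9 ZNF528-AS1 reads in untransduced cells, 18.6 in sgAAVS1 and 15 in TASOR2, against 28.6 in TASOR, 44.1 in PPHLN1 and 49.6 in MPP8. The antisense share was thus at control level in the TASOR2 knockdown and above it in the 3 others. The gene models do not overlap, but whether counting used strand was not stated in the labels.

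**Figure D3:**
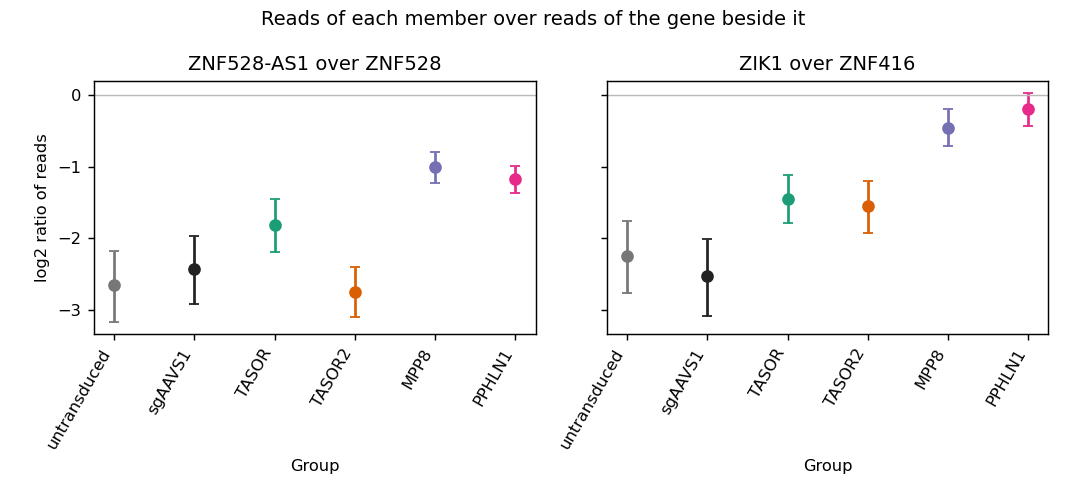
The log2 ratio of reads of each member to reads of the gene beside it (vertical axis) in the 6 groups (horizontal axis), with points from the authors' means and bars for 95% counting intervals. ZNF528-AS1 over ZNF528 is at control level in TASOR2 and highest in MPP8 and PPHLN1, whereas ZIK1 over ZNF416 is above both controls in all 4 knockdowns.

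ZNF416, a zinc finger gene read in the opposite direction, overlaps the ZIK1 gene model by 472 bases, through 1 of the 8 ZIK1 transcripts in GENCODE, which is not a coding one. The RefSeq start of ZIK1 lies 5217 bases beyond the ZNF416 start, so the 2 do not share a compact promoter. ZNF416 means were 3.74 in untransduced cells, 3.46 in sgAAVS1, 4.34 in TASOR, 4.44 in TASOR2, 4.65 in MPP8 and 4.81 in PPHLN1, with controls lowest and MPP8 and PPHLN1 highest as for ZIK1, over a narrower range. From sgAAVS1 it differed by 0.88 in TASOR and 0.98 in TASOR2, short of the rule, and by 1.19 in MPP8 and 1.35 in PPHLN1. The change of ZIK1 was larger in each knockdown, by 1.07 (0.46 to 1.72) in TASOR, 0.97 (0.34 to 1.63) in TASOR2, 2.06 (1.49 to 2.67) in MPP8 and 2.32 (1.76 to 2.92) in PPHLN1. ZIK1 reads per 100 ZNF416 reads went from 21.1 and 17.4 in the controls to 36.7 in TASOR, 34.1 in TASOR2, 72.7 in MPP8 and 87.1 in PPHLN1.

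Shared sequence between family members bears on how far reads can be assigned. Of the 50-base words of the longest ZIK1 transcript (4181 bases) 0.0726% were found in a transcript of another gene on either strand, and of the longest ZNF528-AS1 transcript (2732 bases) 1.30%. That ZNF528-AS1 transcript is a retained intron of 1 exon, and the words of its spliced transcripts were not searched. For ZNF416 the share was 8.32%, all with ZIK1 transcripts other than the longest, which matched only RBBP7. Whether these words come from the overlap of the ZIK1 and ZNF416 gene models was not tested. Neither read length nor the handling of reads with several matches was stated in the labels.

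The genes around ZIK1 were mostly higher too, by less. Within 100 kb, 11 other genes were tested, and their median difference from sgAAVS1 was 0.70 in TASOR, 0.60 in TASOR2, 1.07 in MPP8 and 1.20 in PPHLN1, beside 0.16, 0.07, 0.12 and 0.17 over all tested genes. The rule called 2, 1, 6 and 7 of them higher than sgAAVS1 and none lower. Over all genes it called 1.89%, 2.15%, 1.59% and 2.77% higher and 0.323%, 2.01%, 0.316% and 0.615% lower. Against both controls at once it called 0, 0, 3 and 6 of the 11 higher, beside 0.523%, 0.974%, 0.682% and 1.17% of all genes. In untransduced cells the median difference of the 11 from sgAAVS1 was 0.21, beside 0.05 over all tested genes. Of the 11, ZNF773 went furthest, from -0.17 in sgAAVS1 to 1.49 in TASOR, 1.30 in TASOR2, 1.92 in MPP8 and 2.0 in PPHLN1, but its untransduced mean was 0.68 and only MPP8 and PPHLN1 passed against both controls. ZNF419 stood 1.33 (1.08 to 1.58) higher in MPP8 and 1.59 (1.35 to 1.83) in PPHLN1, and AC003005.4, which overlaps it, 2.09 (1.24 to 3.01) in PPHLN1. ZNF549, with means between -1.23 and -1.5 in both controls, TASOR and TASOR2, reached 0.34 in MPP8 and 0.65 in PPHLN1. It was tested only through these last groups, and its calls there are part of the counts above.

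Within 100 kb beyond the end of ZIK1, the largest difference was 1.20, in ZNF134. This gene was 1.07 (0.94 to 1.21) higher in MPP8 and 1.20 (1.07 to 1.34) in PPHLN1, and ZNF530, whose model begins 6.11 kb beyond the end of ZIK1, reached 1.0 (0.83 to 1.17) in PPHLN1 alone. ZNF211, ZNF551 and AC003006.7 on that side met the rule in no knockdown, with differences between 0.27 and 0.90. Nor did ZNF550, which lies before ZIK1 and overlaps ZNF549, with differences between 0.21 and 0.73. Between 100 and 500 kb from ZIK1, 37 genes were tested. Their medians were 0.30, 0.36, 0.43 and 0.49 in TASOR, TASOR2, MPP8 and PPHLN1, and 3, 1, 9 and 10 were called higher than sgAAVS1. Against both controls 1, 0, 7 and 9 were called higher. None of the 48 tested genes within 500 kb exceeded ZIK1 in any knockdown. The nearest to it were ZNF606, a zinc finger gene, 2.58 higher in MPP8, and ZNF256, 3.03 higher in PPHLN1. ZNF606 was also 1.37 (0.36 to 2.46) higher in untransduced cells than in sgAAVS1, so that its MPP8 mean exceeded the untransduced mean by 1.22.

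Within 100 kb of ZNF528-AS1 the genes called higher lay on 1 side, that of ZNF528. On both sides together, 5 of 9 rows were tested, with median differences of 0.63, 0.81, 1.72 and 2.28 in TASOR, TASOR2, MPP8 and PPHLN1. Of these 1, 2, 3 and 3 were called higher than sgAAVS1, and the counts against both controls were the same. ZNF534, the next gene beyond ZNF528, was 1.46 (0.94 to 1.99) higher in TASOR, 0.73 (0.13 to 1.33) in TASOR2, 1.86 (1.36 to 2.38) in MPP8 and 2.44 (1.97 to 2.94) in PPHLN1. ZNF578, the next again, was 0.24 (-0.37 to 0.84) higher in TASOR, 1.27 (0.74 to 1.81) in TASOR2, 1.72 (1.22 to 2.23) in MPP8 and 2.81 (2.36 to 3.28) in PPHLN1. Neighbours thus differed in which of TASOR and TASOR2 went with the larger change.

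On the other side, ZNF880 and ZNF610 had no mean above 0 and were not tested, ZNF480 differed from sgAAVS1 by 0.54 to 0.81 and ZNF766 by 0.28 to 0.45, with none meeting the rule. Among 24 tested genes between 100 and 500 kb away, the medians were 0.40, 0.67, 0.42 and 0.59. Of these 1, 2, 4 and 3 were called higher than sgAAVS1, all on the side away from ZNF528. Against both controls 0, 1, 2 and 1 were called higher. In MPP8 and PPHLN1 no tested gene within 500 kb exceeded ZNF528-AS1, whereas 3 did in TASOR and 1, ZNF528, in TASOR2.

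**Figure D4:**
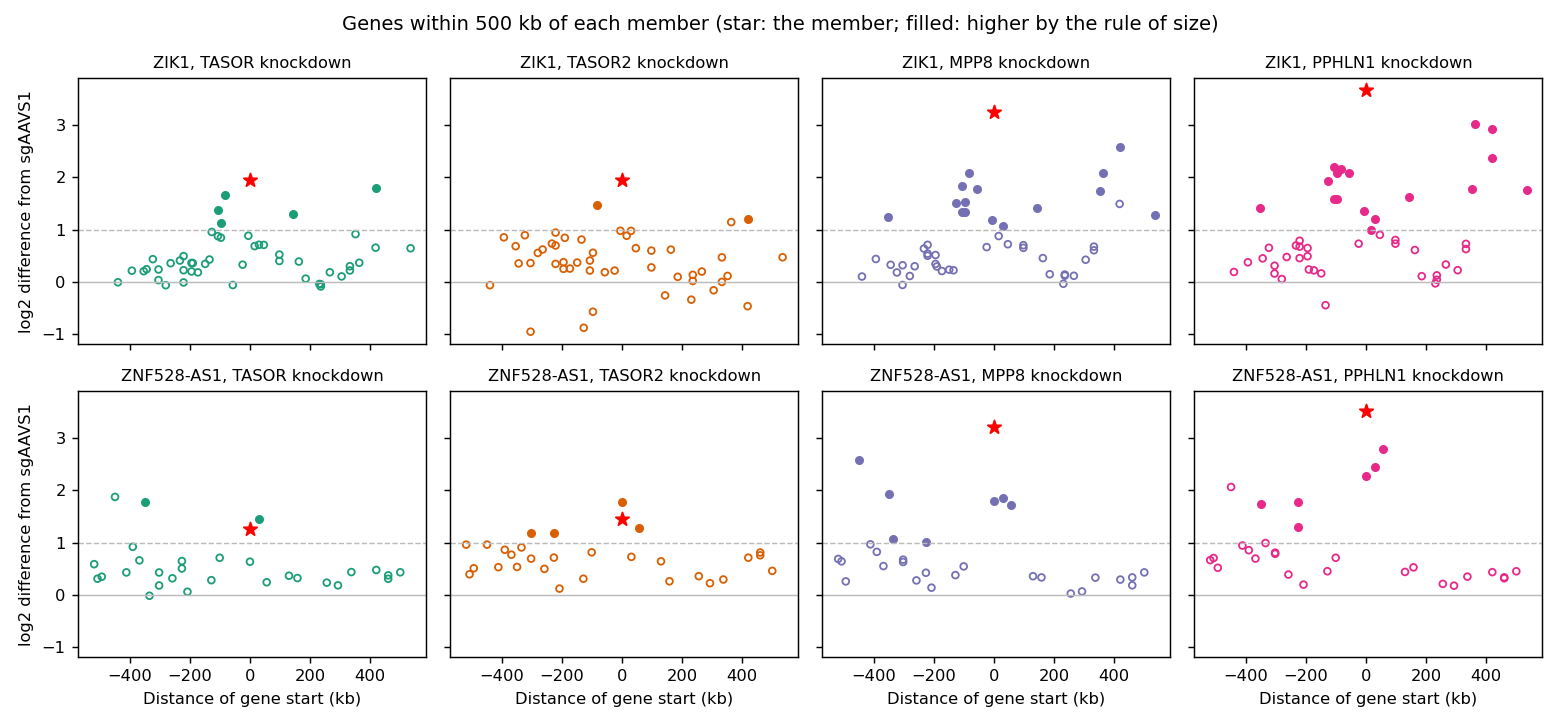
The log2 difference from sgAAVS1 (vertical axis) of each tested gene within 500 kb, against the distance of its start from the start of ZIK1 (upper row) or ZNF528-AS1 (lower row) in kb (horizontal axis), by knockdown; filled points met the rule of size, the star is the member, and the dashed line is at 1. Both stars stand above all other points in MPP8 and PPHLN1, while in TASOR and TASOR2 ZNF528-AS1 lies among its neighbours.

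Over the numbered zinc finger genes within 1 Mb, 42 were tested near ZIK1, of which 3 were higher in TASOR, 3 in TASOR2, 11 in MPP8 and 13 in PPHLN1, with medians of 0.33, 0.35, 0.47 and 0.51. Near ZNF528-AS1 35 were tested, of which 2, 5, 5 and 5 were higher, with medians of 0.43, 0.64, 0.47 and 0.53. None was lower in either cluster. Over all tested genes 1.89%, 2.15%, 1.59% and 2.77% were higher in TASOR, TASOR2, MPP8 and PPHLN1, and 0.323%, 2.01%, 0.316% and 0.615% lower. Against both controls at once 0, 0, 7 and 11 were higher near ZIK1 and 1, 4, 4 and 5 near ZNF528-AS1. The shares over all tested genes were then 0.523%, 0.974%, 0.682% and 1.17%. ZIK1 was also set beside the zinc finger genes that have no ZNF number, such as the ZSCAN, ZKSCAN and ZFP genes. Of 37 others tested, none was higher in TASOR or TASOR2, and ZSCAN18 and HKR1 were higher than sgAAVS1 in MPP8 and PPHLN1, with none against both controls. At the shares over all tested genes few or none of 37 would be called, so nothing is read from these small counts. The medians of the 37 were 0.20, 0.18, 0.15 and 0.24.

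Among other antisense genes of zinc finger genes, changes as large as that of ZNF528-AS1 were seen in none in MPP8 or PPHLN1. Larger values, with wide counting intervals, were seen in the other knockdowns. In TASOR they were 1.88 (0.11 to 4.06) for ZNF350-AS1, which missed the rule, and 1.48 (0.24 to 2.86) for ZNF32-AS2. ZNF528-AS1 had 1.25 (0.71 to 1.81) there. In TASOR2 they were 2.11 (0.59 to 3.91) for ZNF667-AS1 and 1.89 (0.67 to 3.25) for ZNF32-AS2. ZNF528-AS1 had 1.46 (0.92 to 2.02) there. These intervals overlap, so counting error leaves the order of the genes unsettled. Of 16 tested apart from ZNF528-AS1, 2 were higher than sgAAVS1 in TASOR, 2 in TASOR2, 3 in MPP8 and 1 in PPHLN1, and none was lower. Over all tested genes 1.89%, 2.15%, 1.59% and 2.77% were higher. Against both controls 0, 0, 1 and 1 of the 16 were higher, and 1, ZNF32-AS2, was higher in untransduced cells than in sgAAVS1. ZNF667-AS1 had its only mean above 0 in TASOR2, and ZNF350-AS1 in MPP8. Each was thus tested only through the group where it was called, so nothing is read from these counts. The medians of the 16 were 0.47, 0.22, 0.32 and 0.52, and in untransduced cells 0.33. ZNF350-AS1 had means of -2.46 and -2.35 in the controls, -0.47 in TASOR, -1.39 in TASOR2, 0.23 in MPP8 and -0.28 in PPHLN1, so its 2.58 in MPP8 rests on very few control reads. ZNF571-AS1 was 1.02 higher in MPP8 and 1.44 in PPHLN1, where its sense gene ZNF571 differed by 0.25 and 0.48.

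The genes of the silencing pathway itself were set beside the members. Of 18 genes for H3K9 methylation and HUSH partners, including SETDB1, MORC2, the corepressor TRIM28 and ATF7IP, which stabilises SETDB1, none was called higher in any knockdown. Over all tested genes 1.89%, 2.15%, 1.59% and 2.77% were higher in TASOR, TASOR2, MPP8 and PPHLN1. At these shares few or none of 18 would be called, so nothing is read from the count. In each knockdown 1 was lower, the targeted gene. All other differences from sgAAVS1 lay between -0.16 (in TASOR2) and 0.73 (0.66 to 0.80, FAM208B in PPHLN1). SETDB1 lay between 7.41 and 7.65 in all 6 groups and MORC2 between 7.12 and 7.35.

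Genes with the most similar profile were found by Pearson's r over the 6 group means, among 2836 genes with a range of at least 1, as a description over 6 points that share their libraries with the members. For ZIK1 these were ZNF331 (r = 0.989), C19orf66, an interferon-induced gene (0.986), ZNF419 (0.984), ZNF528-AS1 itself (0.982) and TAPBPL, an antigen-processing gene (0.981). For ZNF528-AS1 they were TAPBPL (0.996), ZNF404 (0.994), ZNF221 (0.994), C19orf66 (0.993) and ZNF233 (0.987), and ZIK1 came at rank 6. The sizes differed: the range over groups was 3.67 for ZIK1 and 3.53 for ZNF528-AS1, against 1.82 for ZNF331, 1.58 for TAPBPL and 1.07 for C19orf66. ZNF233 had a range of 3.15 but only about 2.2 reads per library in sgAAVS1.

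**Figure D5:**
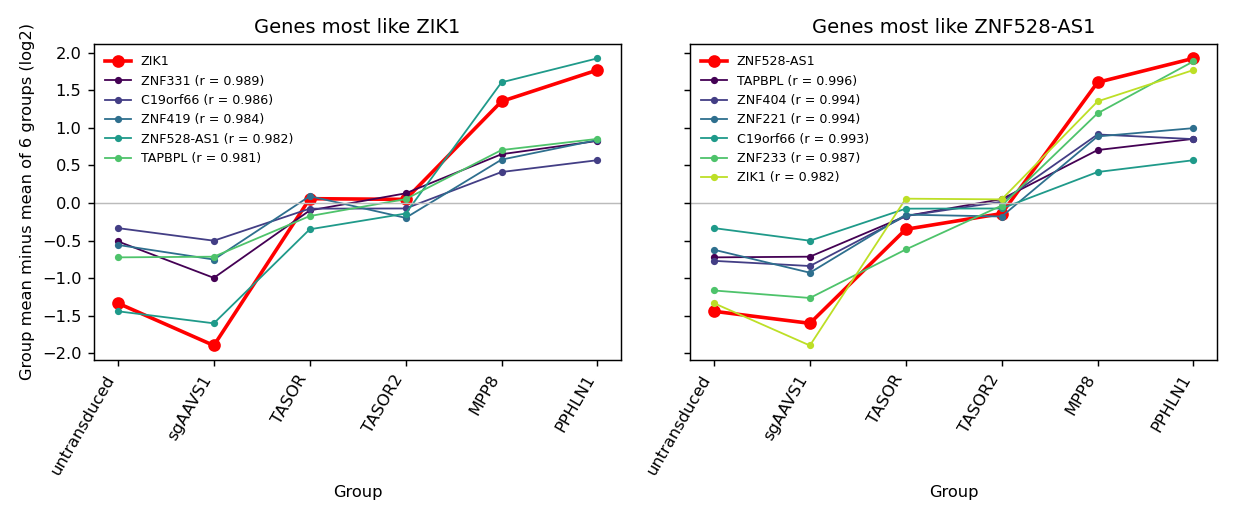
Group means minus the mean of the 6 groups (vertical axis, log2) for ZIK1 (left) and ZNF528-AS1 (right) in red and for the genes of most similar profile in other colours, with lines only to guide the eye between groups (horizontal axis). The similar genes are highest in MPP8 and PPHLN1, and most of them span less than 2 on the log2 scale where the members span 3.67 and 3.53.

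Transcript GC content was looked at beside both results. The 500 genes nearest in GC to ZIK1 (44.7% GC) had median differences from sgAAVS1 of 0.14 in TASOR, 0.17 in TASOR2, 0.10 in MPP8 and 0.16 in PPHLN1, and those nearest to ZNF528-AS1 (49.9% GC) 0.16, 0.06, 0.11 and 0.17. With these subtracted, the difference in TASOR2 was 1.77 for ZIK1 and 1.40 for ZNF528-AS1.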

How the data were processed

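Per the labels' protocols, total RNA was freed of ribosomal RNA and made into directional libraries. The submitters' processing notes name cutadapt, Bowtie2 and hg38. Counter, annotation, read length and use of strand were not given in the sources used here. One column holds, per the file headers, the authors' mean log2 value for untransduced cells. Each of the 5 remaining columns, judged by its values, was deposited as the ratio of a group's mean log2 value to that one, and multiplying gave back the group means. All low values (100% in each column, relative tolerance 0.001) matched means of whole reads with 0 reads set to 0.9, which gave depth and libraries per mean. In 102 rows the untransduced value was within 0.05 of 0, where rounding weighs more. No value column was left unused.

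Of rows with the same symbol, only the highest was used (87 dropped). Intervals combined exact Poisson limits of the read equivalents of each mean (Python 3.11.15, SciPy 1.17.1), and were checked on simulated data. With means only, no test was made. The members, lists and rules were chosen with earlier results of these data known. Named were the members, ZNF528, genes within 100 kb, the 5 most similar by profile, those past the rule in all knockdowns, the targets and up to 4 per list. IFIT1, FRAS1, PIPOX, SAMD9, AC084219.4, RP11-90L1.8, ZNF606 and ZNF256 were named after their values were seen. Control, scaling, filter, pseudocount and GC alternatives were tried. Coordinates matched GENCODE release 29 (GRCh38). Both members matched RefSeq promoters by symbol.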

Additional observations from a re-analysis of the deposited data

How the results depend on the processing

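Across the 8 differences from sgAAVS1 (2 genes, 4 knockdowns) and 8 alternatives, all 64 values kept their direction, 61 stayed inside the counting interval and 63 were at least 1, the exception being ZNF528-AS1 in TASOR after quantile normalization (0.97). Of the 64, 16 come from a filter on low values, which cannot change the value of 1 gene, so 48 could have differed in size. Not all of these could have changed direction. A pseudocount cannot reverse a difference, and with untransduced cells as control the direction was fixed by the choice of the members. Nothing is therefore read from the shared direction. With untransduced cells as the control ZIK1 moved beyond its interval to 1.39 in TASOR, 2.69 in MPP8 and 3.11 in PPHLN1, which follows from its higher untransduced mean. Removing the GC trend was added after seeing the data. The count of all genes called higher depended more on the choice. In TASOR it was 311, and 204 against untransduced cells, 199 after median centring, 129 after quantile normalization, 82 with at least 1 mean above 2 and 128 with a pseudocount of 0.5. In TASOR2 it was 353, and 218, 146 and 217 with untransduced cells, the stricter filter and the pseudocount. In MPP8 it was 261, and 118 and 172 with the stricter filter and the pseudocount. In PPHLN1 it was 456, and 253, 276, 185 and 300 with untransduced cells, quantile normalization, the stricter filter and the pseudocount. No paired analysis was possible because the table holds 1 mean per group, and for the same reason no library could be left out.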

Other observations

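Of the 5 genes most like ZNF528-AS1 in profile, ZNF404, ZNF221 and ZNF233 lie in another chromosome 19 cluster, and AC084219.4, the gene with the widest distance between knockdowns and controls, lies among them at chr19:44105463-44113145. The stretch from the start of ZNF404 to the end of ZNF233 was chosen after these values were seen. Of its 19 tested genes 3 were higher than sgAAVS1 in TASOR, 4 in TASOR2, 12 in MPP8 and 13 in PPHLN1, and none was lower, with median differences of 0.46, 0.86, 1.65 and 1.69. Over all tested genes 1.89%, 2.15%, 1.59% and 2.77% were higher, with medians of 0.16, 0.07, 0.12 and 0.17. Against both controls 1, 2, 9 and 11 were higher. The 19 include ZNF404, ZNF221, ZNF233 and AC084219.4, the genes that led to the choice of the stretch. Each of these was called higher in MPP8 and PPHLN1 against both controls, and AC084219.4 also in TASOR. Nothing is therefore read from the counts. In AC084219.4 no read was found in untransduced cells, and its mean was at least 14-fold higher in PPHLN1, 11.7-fold in MPP8 and 8.04-fold in TASOR than the limit of 3 counts over the untransduced group, with counting error in the knockdowns not included.

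On the linear scale, the gain of ZNF528-AS1 in MPP8 and PPHLN1 exceeded the sum of its gains in TASOR and TASOR2. Above sgAAVS1 it gained 3.34 RPM in TASOR and 4.24 in TASOR2, together 7.58, against 19.9 in MPP8 and 25.5 in PPHLN1. For ZIK1 the gains were 5.52 and 5.47, together 11, against 16.3 and 22.5. For ZNF528 they were 7.15 and 31.4, together 38.6, against 32.0 in MPP8 and 50.2 in PPHLN1, so in MPP8 the sum was not exceeded. On the log2 scale the sum of the TASOR and TASOR2 differences was 2.71 for ZNF528-AS1, below its 3.21 in MPP8 and 3.53 in PPHLN1. It was 3.90 for ZIK1, above its 3.25 and 3.67, and 2.41 for ZNF528, above its 1.79 and 2.28. For ZIK1, and for ZNF528 in PPHLN1, whether the sum was exceeded thus depended on the scale. Counting error of the sums was not worked out. No double knockdown was analysed here, the share of target RNA left was unequal, and the comparison is of values with no test.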
